A study of Mus musculus with 12 samples.

Results

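The 38 genes described here are cell cycle and DNA replication genes, taken by name from a list of proliferation markers, and all 38 were found in each of the 12 libraries among the 55425 gene identifiers that the libraries share. They fall into 16 genes of S phase, the stage in which DNA is copied, and 22 genes of mitosis, the stage in which the copied chromosomes are separated. The S-phase genes are Mcm2, Mcm3, Mcm4, Mcm5, Mcm6, Mcm7, Cdc6, Cdt1, Gins2, Pcna, Rrm1, Rrm2, Tyms, Ccne1, Ccne2 and E2f1. The mitotic genes are Cdk1, Ccna2, Ccnb1, Ccnb2, Aurka, Aurkb, Plk1, Bub1, Bub1b, Kif11, Kif20a, Kif23, Tpx2, Cenpa, Cenpe, Cenpf, Birc5, Cdca8, Cdc20, Ube2c, Mki67 and Top2a.

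RNA of HM1, an ovarian cancer line of the mouse, was sequenced in 12 libraries, 3 for each of 4 groups: tumors of HM1 cells with a short hairpin RNA against St3gal3 (knockdown tumors), tumors of HM1 cells with a control hairpin (control tumors), and cultured HM1 cells with each of these hairpins (knockdown cultures and control cultures). St3gal3 encodes a sialyltransferase, an enzyme that caps glycans with sialic acid. All 4 groups derive from this 1 cell line, and the labels give neither the number of hairpin sequences, the host strain, age and site of the tumors, nor whether the libraries of a group came from separate animals or cultures, so a p-value here reflects only how far these libraries differ, which may be technical. The St3gal3 level was 7.28, 5.87 and 5.76 TPM (a transcript level scaled for gene length and for the total of the library) in knockdown tumors, against 14.0, 15.4 and 15.4 in control tumors. In knockdown cultures it was 1.52, 1.25 and 1.83 TPM, against 9.59, 12.5 and 12.9 in control cultures.

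Read depth is unknown, and 12629 to 14534 genes per library reached 1 TPM. Of the markers expected of an epithelial ovarian line, Krt8, Krt18 and Krt19 were abundant in culture, while Epcam, Cdh1, Pax8, Muc16, Cldn4 and Krt7 were at or near 0 there. Tumors also held host transcripts: the 8 macrophage markers summed to 1472 to 1925 TPM in knockdown tumors and 1381 to 1974 in control tumors, against 21.2 to 22.1 in knockdown cultures and 16.6 to 20.2 in control cultures. The 8 fibroblast markers summed to 737 to 1129 TPM in knockdown tumors and 1123 to 1518 in control tumors, against 1.10 to 1.90 in the 6 cultures. All 8 genes of each list averaged at least 1 TPM in both tumor groups, against 2 macrophage and 0 fibroblast genes in each culture group. The 12 HM1 epithelial markers summed to 2567 to 2831 TPM in knockdown tumors and 3232 to 3437 in control tumors, against 4567 to 4655 in knockdown cultures and 4853 to 5052 in control cultures. Of these 12, 4 averaged at least 1 TPM in each culture group, 7 in knockdown tumors and 6 in control tumors. Single genes of the list were higher in tumors, as given below. In such bulk samples, fewer cells of a type and less RNA per cell cannot be told apart.

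A dividing cell first licenses its origins of replication: Cdc6 and Cdt1 load the ring of Mcm2 to Mcm7 onto DNA in the gap phase before S phase. Cyclin E with its kinase then starts replication, the GINS complex joins the Mcm ring to form the active helicase, and Pcna clamps the polymerases to the template. Ribonucleotide reductase and thymidylate synthase supply the nucleotides. Mitosis is driven by Cdk1 with cyclins A and B, and is carried through by the Aurora and Polo kinases, spindle motors, centromere proteins and the anaphase-promoting complex. Transcription of the S-phase genes is classically tied to E2F factors, and that of the mitotic genes to the DREAM and MuvB complexes, which bind the cell cycle homology element, and to the CCAAT-binding factor NF-Y.

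Tumors were compared with cultures within each line. A gene was called higher or lower where limma, a linear model that shares variance estimates between genes, gave an adjusted p under 0.05 on log2(TPM + 1). Tumors had lower levels of all 16 S-phase genes in both lines, each by at least 2-fold. Of the 22 mitotic genes, 19 were lower and 1 was higher in knockdown tumors than in knockdown cultures, and 17 were lower and 1 was higher in control tumors than in control cultures. The median log2 change of the S-phase genes was -1.45 in the knockdown line and -1.51 in the control line, against -0.79 and -0.88 for the mitotic genes and 0.08 and 0.18 for all genes tested. Over all genes, 28.9% were lower and 36.4% higher in knockdown tumors, and 25.6% were lower and 40.4% higher in control tumors, at a limma adjusted p under 0.05. At that p and a change of at least 2-fold, 8.63% of all genes were lower in the knockdown line and 7.52% in the control line, while 21 of the 38 cell cycle genes were lower in each line, namely 16 S-phase and 5 mitotic genes. All tumor libraries of a line lay below all of its culture libraries for 35 of the 38 genes in the knockdown line, against 30% of all genes, and for 33 in the control line, against 27.2%. Cultures and tumors were deposited as separate sets of tables, so tissue cannot be told apart from anything else that differed between the sets.

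**Figure D1:**
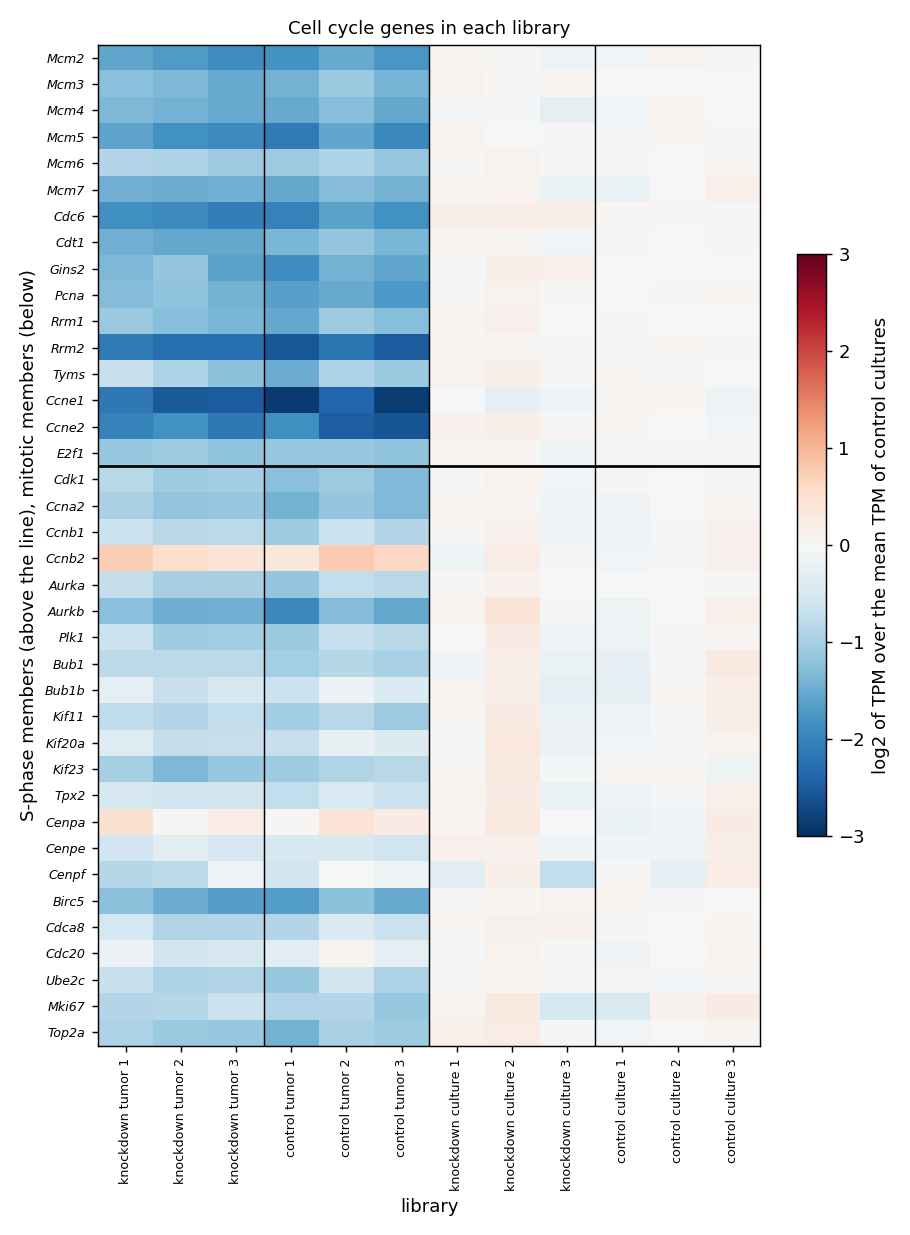
Heat map of the 38 genes (rows, S-phase genes above the black line and mitotic genes below it) in the 12 libraries (columns, 3 per group). Color gives log2 of the TPM over the mean TPM of the 3 control cultures, blue lower and red higher; all 16 S-phase rows are blue in all 6 tumors, whereas the Ccnb2 row is red in them.

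Among the licensing and helicase genes, all 10 were lower in tumors of both lines (median log2 change -1.45 in the knockdown line and -1.51 in the control line). Pcna (ENSMUSG00000027342), the sliding clamp and the most abundant S-phase gene of every group, had 224, 239 and 207 TPM in knockdown tumors and 179, 194 and 168 in control tumors, against 569, 595 and 574 in knockdown cultures and 551, 541 and 575 in control cultures. Every tumor library lay below every culture library, and the tumor means were 2.59-fold lower in the knockdown line and 3.08-fold lower in the control line. Mcm2, a subunit of the helicase ring, had 49.2, 44.6 and 40.0 TPM in knockdown tumors and 41.8, 50.9 and 43.4 in control tumors, against 152, 149.8 and 130.1 in knockdown cultures and 137, 157 and 141 in control cultures. The point estimates of the 6 ring subunits ran between those of Mcm6 and Mcm5. Mcm5 changed by -1.79 (SE 0.125) in the knockdown line and -1.86 (SE 0.124) in the control line, and Mcm6 by -1.01 (SE 0.073) and -1.05 (SE 0.073) on the log2 scale. Of the loaders, Cdc6 had 10.1, 9.56 and 8.50 TPM in knockdown tumors and 8.83, 11.8 and 10.1 in control tumors, against 40.7, 40.9 and 41.2 in knockdown cultures and 36.5, 36.7 and 34.5 in control cultures. Its partner Cdt1 had 32.7, 30.8 and 30.6 TPM in knockdown tumors and 34.4, 38.7 and 34.0 in control tumors, against 92.3, 93.5 and 83.8 in knockdown cultures and 85.4, 89.0 and 91.1 in control cultures. Neither loader overlapped between tumors and cultures.

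The largest changes of S-phase genes were those of Rrm2 and the E cyclins. Rrm2 (ENSMUSG00000020649), the small subunit of ribonucleotide reductase whose level is tied to S phase, had 72.8, 65.6 and 65.5 TPM in knockdown tumors and 53.8, 68.8 and 56.2 in control tumors, against 336, 326 and 302 in knockdown cultures and 306, 334 and 305 in control cultures. Its log2 change was -2.24 (SE 0.090) in the knockdown line and -2.40 (SE 0.090) in the control line, beside -1.33 and -1.29 for Rrm1, the large subunit. Tyms, thymidylate synthase, changed by -1.05 and -1.17. Ccne1, cyclin E1, had 11.4, 8.85 and 8.94 TPM in knockdown tumors and 6.93, 9.73 and 6.97 in control tumors, against 51.0, 42.8 and 46.0 in knockdown cultures and 53.4, 52.4 and 45.7 in control cultures. With a mean 6.41-fold lower in control tumors, it had the largest change of the 38 genes in that line (log2 change -2.56, SE 0.137), and its change in the knockdown line was -2.17. Ccne2 changed by -2.04 and -2.21, and E2f1, the transcription factor, by -1.12 and -1.13 in the knockdown and control lines. The adjusted p of limma was at most 3.7e-05 for any S-phase gene in the knockdown line and 1.5e-05 in the control line.

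**Figure D2:**
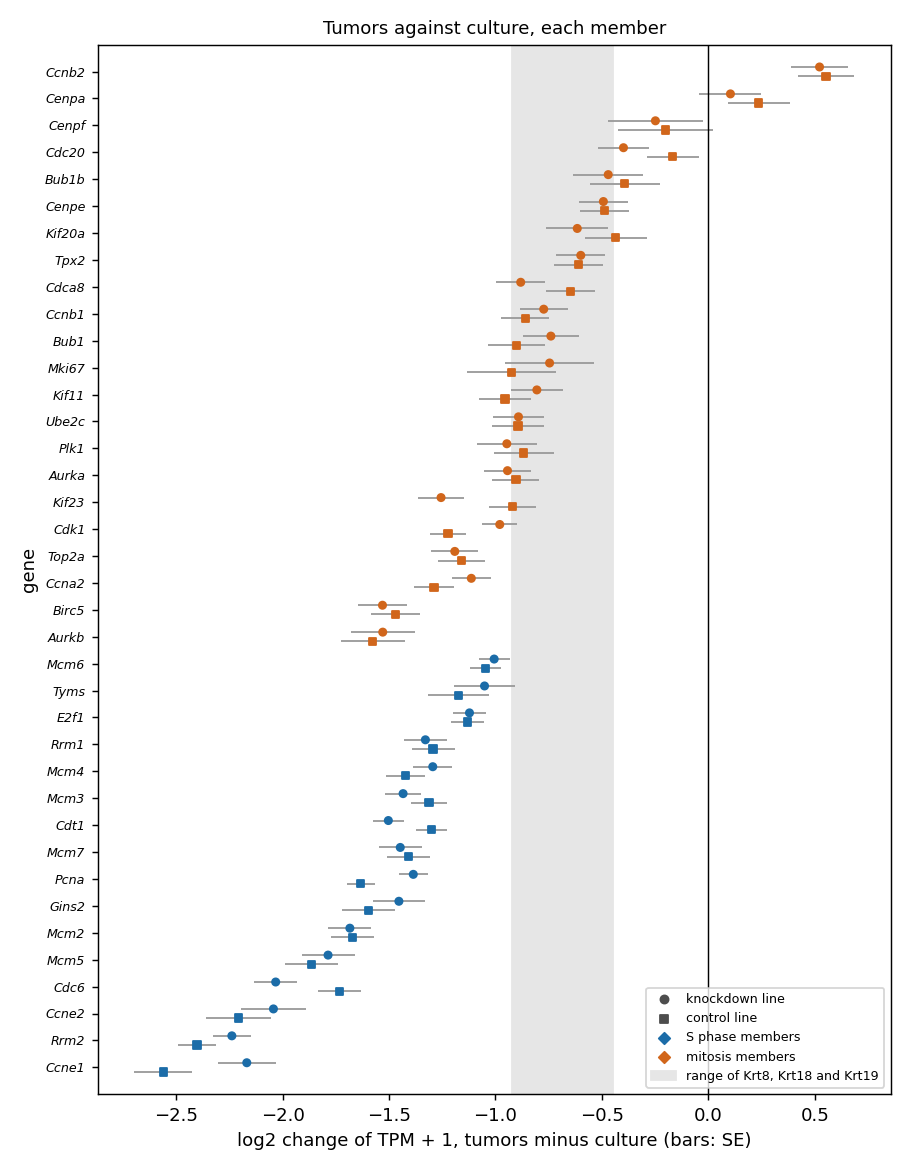
Change of each of the 38 genes between tumors and cultures, as log2 of TPM + 1 in tumors minus cultures (horizontal axis), with circles for the knockdown line, squares for the control line and bars of 1 standard error. S-phase genes (blue) lie at or below -1.01 in both lines, mitotic genes (orange) run up to Ccnb2 at 0.52 and 0.55, and the grey band spans the changes of Krt8, Krt18 and Krt19.

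Mitotic genes were spread more widely. Of the 4 genes of Cdk1 and its cyclins, Cdk1, Ccna2 and Ccnb1 were lower in tumors and Ccnb2 was higher, in both lines. Cdk1, the mitotic kinase and the most abundant mitotic gene of every group, had 182, 155 and 158 TPM in knockdown tumors and 136, 155 and 129.6 in control tumors, against 311, 350.3 and 308 in knockdown cultures and 315, 329 and 332 in control cultures. Ccna2, cyclin A2, had 44.6, 38.2 and 39.4 TPM in knockdown tumors and 32.5, 39.3 and 34.7 in control tumors, against 92.3, 92.7 and 80.4 in knockdown cultures and 81.4, 88.6 and 91.8 in control cultures. Tumors and cultures did not overlap for either gene. The 2 B-type cyclins went opposite ways. Ccnb1, cyclin B1, had 46.6, 40.7 and 41.2 TPM in knockdown tumors and 34.5, 46.2 and 39.1 in control tumors, against 74.3, 79.7 and 66.1 in knockdown cultures and 67.0, 70.6 and 79.7 in control cultures. Ccnb2 (ENSMUSG00000032218), cyclin B2, had 56.9, 48.9 and 44.3 TPM in knockdown tumors and 42.8, 58.4 and 51.9 in control tumors, against 30.4, 39.5 and 32.7 in knockdown cultures and 32.2, 32.5 and 37.2 in control cultures. Every tumor library thus lay above every culture library for Ccnb2, whose log2 change was 0.52 (SE 0.134, limma adjusted p = 0.00438) in the knockdown line and 0.55 (SE 0.134, limma adjusted p = 0.00301) in the control line. The Ccnb2 change kept its sign under every alternative run, between 0.41 and 0.67 over both lines, and did not reach 2-fold.

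All 5 mitotic kinase genes were lower in knockdown tumors and 4 of 5 in control tumors. Aurkb, the kinase of the chromosomal passenger complex, had the largest change of them (-1.53 in the knockdown line and -1.58 in the control line). Aurka, Plk1 and Bub1 changed by -0.74 to -0.95 in both lines. Bub1b, a checkpoint kinase, was called in the knockdown line (-0.47, adjusted p = 0.0242) but not in the control line (-0.39, adjusted p = 0.0517). These 2 values were close to the threshold: the call in the knockdown line was lost without knockdown culture 1 or 2 or knockdown tumor 2 or 3 (adjusted p of 0.0539 to 0.0938) and with a replicate block (0.0656), and 1 in the control line was gained without control culture 1 (0.0175), control tumor 2 (0.0266) or knockdown culture 2 (0.0494) or 3 (0.0356), and with median-of-ratios scaling (0.00315), array weights (0.0329) or a filter of 1 TPM in 3 libraries (0.0451).

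The 4 motor and spindle genes were lower in both lines, with Kif23, a motor of the late spindle and cytokinesis, at -1.26 and -0.92, Kif11 at -0.81 and -0.96, Tpx2 at -0.60 and -0.61, and Kif20a at -0.62 and -0.43. The Kif20a call in the control line was lost without control tumor 1 (adjusted p = 0.0862) or control culture 3 (adjusted p = 0.0634) and with a replicate block (adjusted p = 0.0545). The passenger and centromere genes divided. Birc5, survivin, had 98.5, 82.6 and 72.9 TPM in knockdown tumors and 72.7, 97.8 and 81.4 in control tumors, against 236, 242 and 249.8 in knockdown cultures and 239, 226 and 228 in control cultures. Its partner Cdca8, borealin, changed by -0.88 and -0.65, and Cenpe, a centromere motor, by -0.49 in each line. Cenpa, the histone of the centromere, did not pass, with changes of 0.10 and 0.24 (limma adjusted p = 0.544 and 0.169), except without control culture 3 in the control line (0.37, adjusted p = 0.0421). Cenpf, at 3.85 to 8.13 TPM the least abundant of the 38 genes in every group, did not pass either (-0.25 and -0.20).

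Of the 2 genes that act with the anaphase-promoting complex, Ube2c, its ubiquitin-conjugating enzyme, changed by -0.89 in each line. Cdc20, its activator, was lower in the knockdown line (-0.40, adjusted p = 0.0118) and did not pass in the control line (-0.17, adjusted p = 0.240). Its call was lost without knockdown tumor 2 (adjusted p = 0.0532) and 1 in the control line was gained without control tumor 2 (adjusted p = 0.0417) or with median-of-ratios scaling (adjusted p = 0.0409). Mki67, which encodes the proliferation marker Ki-67, had 26.3, 26.9 and 30.9 TPM in knockdown tumors and 26.1, 26.5 and 22.2 in control tumors, against 52.3, 59.0 and 33.8 in knockdown cultures and 35.5, 52.8 and 57.5 in control cultures. Knockdown culture 3 and control culture 1 were the low cultures, yet both stayed above every tumor. Top2a, topoisomerase II alpha, which untangles chromosomes, had 144, 128 and 125 TPM in knockdown tumors and 104, 141 and 132 in control tumors, against 309, 326 and 269.7 in knockdown cultures and 262, 279 and 292 in control cultures. Mki67 changed by -0.75 (SE 0.208) and -0.92 (SE 0.208), beside -1.19 and -1.16 for Top2a.

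The balance between S-phase and mitotic genes can be read within each library, where a common scale factor cancels. The geometric mean of the 16 S-phase genes was 44.9, 42.8 and 38.7 TPM in knockdown tumors and 36.9, 44.2 and 37.9 in control tumors, against 128.7, 129.3 and 119.7 in knockdown cultures and 120.8, 124.9 and 122.4 in control cultures. That of the 22 mitotic genes was 39.8, 34.3 and 35.9 TPM in knockdown tumors and 32.2, 41.1 and 36.0 in control tumors, against 61.5, 69.4 and 55.4 in knockdown cultures and 56.3, 59.5 and 65.8 in control cultures. The ratio of the S-phase mean to the mitotic mean was 1.13, 1.25 and 1.08 in knockdown tumors and 1.15, 1.08 and 1.05 in control tumors, against 2.09, 1.86 and 2.16 in knockdown cultures and 2.15, 2.10 and 1.86 in control cultures. The 6 tumors did not overlap the 6 cultures in any of these measures. Together the 38 genes held 0.174 to 0.220% of all TPM in tumors and 0.439 to 0.494% in cultures.

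**Figure D3:**
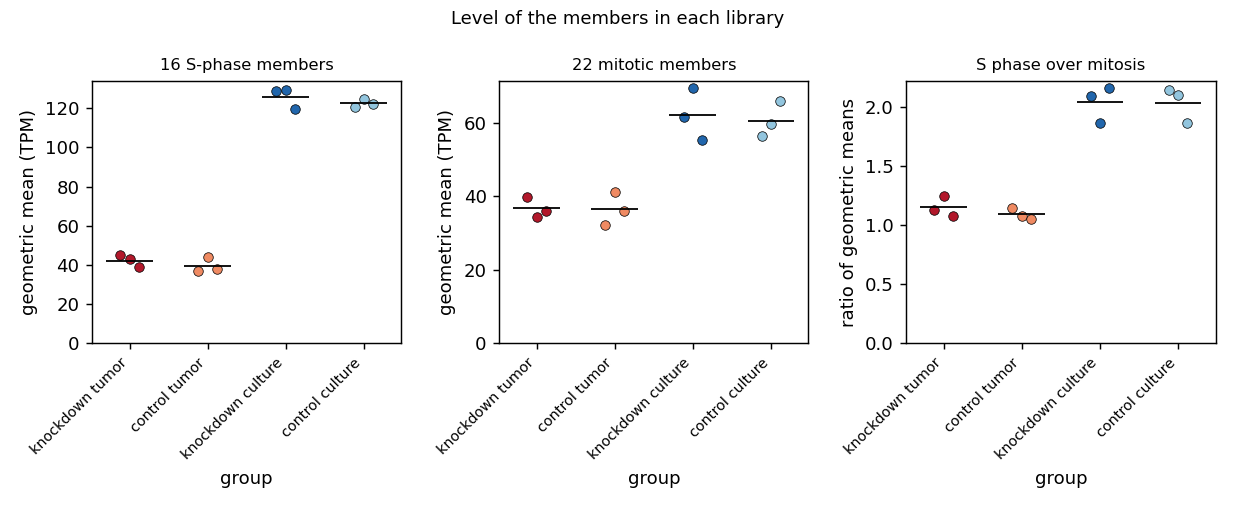
Geometric mean TPM of the 16 S-phase genes (left) and of the 22 mitotic genes (middle), and the ratio of the first to the second (right), in each library, with 1 point per library and a line at the mean of each group of 3. The ratio lies between 1.05 and 1.25 in the 6 tumors and between 1.86 and 2.16 in the 6 cultures.

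Krt8, Krt18 and Krt19, the keratins that were abundant in the cultured line, were also lower in tumors, by -0.92 to -0.67 on the log2 scale in the knockdown line and by -0.67 to -0.45 in the control line. These 3 were chosen, after their values were seen, from the 12 HM1 epithelial markers, and the list as a whole did not move one way: Msln, mesothelin, the fourth of them that averaged at least 1 TPM in culture, was higher in tumors (1.00 and 1.68), as was Cdh1, E-cadherin (2.33 and 2.48). All 16 S-phase genes changed by more than each of the 3 keratins in both lines. Of the 22 mitotic genes, 8 changed by more than every keratin, 6 lay within their range and 8 lay above it in the knockdown line; the counts were 13, 3 and 6 in the control line. How much of the lower levels came with the share of host transcripts was not tested.

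Promoters were examined because the S-phase and mitotic genes differed in these changes. RefSeq promoter windows of the build GRCm38.p6, from 250 bases before to 50 bases after a gene's start, matched 31 of the 38 genes by symbol, with 32 windows; Aurkb, Ccna2, Ccne2, Gins2, Kif20a, Mcm4 and Tpx2 had none. The libraries were processed with GRCm39, so these coordinates are not those of the deposited data. The cell cycle homology element, searched as TTTGAA on both strands, was found in 14 of 18 mitotic windows (77.8%) and 1 of 14 S-phase windows (7.14%), beside 17.9% of 32851 windows of all genes. E2F letters, searched with the spelling TTCCCGC, with the spelling TTGGCGC, with the spelling TTCGCGC or with the spelling TTGCCGC on both strands, were found in 9 of 14 S-phase windows (64.3%) and 3 of 18 mitotic windows (16.7%), beside 9.57% of all windows. CCAAT, on both strands, was found in 9 of 14 S-phase windows (64.3%) and 17 of 18 mitotic windows (94.4%), beside 37.4% of all windows. The 14 S-phase windows belong to 13 genes, as Mcm7 has a further window, and both of its windows hold E2F letters and CCAAT. E2F matches overlap each other where these spellings meet on opposite strands, and an E2F match can share bases with CCAAT. A match is a run of letters and not a measured binding site.

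The 4 upstream sequences below show how the matches lie in examples of both groups: Mcm5 and Mcm6, the ring subunits with the largest and smallest changes, Ccnb2, the mitotic gene that was higher in tumors, and Cdk1, which carries both kinds of match. Each is the 250 bases before the start, written on the strand of the gene, with matches to any of the 3 motifs in capitals.
Mcm5, chr8:75109259-75109508, plus strand: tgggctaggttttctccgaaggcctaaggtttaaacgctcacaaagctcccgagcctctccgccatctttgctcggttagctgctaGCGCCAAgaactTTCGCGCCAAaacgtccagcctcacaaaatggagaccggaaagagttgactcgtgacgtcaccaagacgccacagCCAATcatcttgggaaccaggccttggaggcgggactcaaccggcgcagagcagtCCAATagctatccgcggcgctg
Mcm6, chr1:128359706-128359955, minus strand: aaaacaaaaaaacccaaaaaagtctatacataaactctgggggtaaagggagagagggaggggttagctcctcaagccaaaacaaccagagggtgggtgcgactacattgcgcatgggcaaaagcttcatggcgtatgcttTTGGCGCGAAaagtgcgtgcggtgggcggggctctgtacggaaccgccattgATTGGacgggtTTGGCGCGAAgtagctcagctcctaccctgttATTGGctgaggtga
Ccnb2, chr9:70421555-70421804, minus strand: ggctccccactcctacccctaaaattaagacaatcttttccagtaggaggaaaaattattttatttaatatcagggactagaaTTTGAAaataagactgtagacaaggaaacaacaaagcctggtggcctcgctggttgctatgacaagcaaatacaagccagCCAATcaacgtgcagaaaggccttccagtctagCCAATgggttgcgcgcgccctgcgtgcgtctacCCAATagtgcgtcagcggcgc
Cdk1, chr10:69352913-69353162, minus strand: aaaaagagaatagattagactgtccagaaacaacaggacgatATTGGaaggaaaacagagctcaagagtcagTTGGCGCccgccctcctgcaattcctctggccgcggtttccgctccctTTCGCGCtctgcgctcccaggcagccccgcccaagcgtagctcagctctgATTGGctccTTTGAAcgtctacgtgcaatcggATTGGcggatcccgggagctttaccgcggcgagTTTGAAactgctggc
Mcm5 shows overlapping E2F matches and CCAAT, and Mcm6 shows E2F matches on opposite strands at 2 places. Ccnb2 shows TTTGAA and 3 CCAAT matches but no E2F letters, and Cdk1 shows TTTGAA near its start together with E2F letters farther away. Matches after the start are not in the printed bases, among them a further TTTGAA of Ccnb2 that begins at position 5. The windows of E2f1, Tyms and Ccne1, the last being the S-phase gene with the largest change in the control line, hold none of the 3 motifs. Mitotic genes that hold TTTGAA in the window include Ccnb2, which was higher in tumors, and Cdk1, Top2a and Kif23, which were lower. Cenpa and Cenpf, which did not pass in either line, and Cdc20, which did not pass in the control line, hold it too. The mitotic windows without it are those of Birc5, Bub1, Ccnb1 and Cenpe, which were all lower in both lines. Whether the motif goes with the change in tumors was not tested.

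The wider lists of these pathways were also mostly lower in tumors. Over all genes, 28.9% were lower and 36.4% higher in the knockdown line, and 25.6% were lower and 40.4% higher in the control line. Of 42 other replication genes, 40 were lower and 0 higher in tumors of each line, with median changes of -1.25 in the knockdown line and -1.20 in the control line. Mcm10, which helps to activate the helicase, changed by -2.21 and -2.32, Prim1, a primase subunit, by -1.75 and -1.94, and Tipin, a fork protection factor, by -1.75 and -1.85. Of 52 other mitotic genes, 49 were lower in the knockdown line and 48 in the control line, with medians of -0.75 and -0.86. Mybl2, the B-Myb factor of the mitotic program, changed by -2.42 and -2.54, and Incenp, the scaffold of the passenger complex, by -1.90 and -1.74. The 1 gene of this list called higher in tumors was Pttg1, securin (0.51 and 0.53).

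Upstream of S phase, 12 of 17 genes of the list of G1 cyclins, kinases and E2F factors were lower and 2 higher in the knockdown line, and 11 were lower and 1 was higher in the control line. The shares of all genes that were lower were 28.9% and 25.6% in these lines. Tfdp1, the partner of E2F, changed by -1.17 and -1.09, Cdc25a, a phosphatase that activates Cdk2, by -1.19 and -1.03, and Myc by -0.69 and -0.71. Ccnd2, cyclin D2, had 22.4, 6.91 and 25.7 TPM in knockdown tumors and 4.63, 7.01 and 6.42 in control tumors, and was listed at 0.00 to 0.01 TPM in the 6 cultures. Of 17 tested genes that hold back the cell cycle, 12 (70.6%) were higher and 4 (23.5%) lower in tumors of both lines, with median changes of 1.05 and 1.23. Over all genes, 36.4% were higher and 28.9% lower in the knockdown line, and 40.4% were higher and 25.6% lower in the control line. The share that was lower was thus near that of all genes. Gadd45a, a growth arrest and DNA damage gene, had 92.8, 117 and 126 TPM in knockdown tumors and 134, 129 and 169.8 in control tumors, against 5.74, 7.04 and 6.94 in knockdown cultures and 7.09, 7.06 and 8.18 in control cultures. Its log2 change was 3.88 (SE 0.135) in the knockdown line and 4.09 (SE 0.135) in the control line. Gadd45b, Gadd45g, Btg1, Rb1 and Cdkn2b were among the others that were higher, and Cdkn2a and Cdkn2b, the INK4 and ARF locus genes, had 0.88 to 1.99 TPM in tumors and were listed at 0 in all 6 cultures. Cdkn1a, the p53 target p21, was lower in tumors (-0.24 and -0.15). Host cells express many of these genes, and their part in the higher values was not tested.

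**Figure D4:**
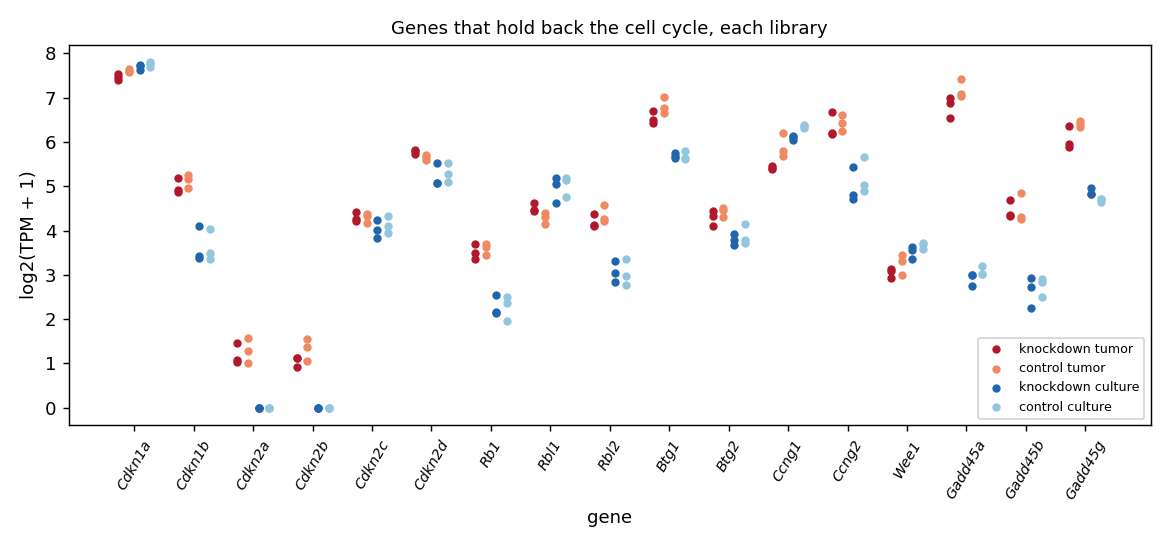
Levels of 17 genes that hold back the cell cycle, as log2(TPM + 1) (vertical axis), with 1 point per library and colors for the 4 groups. Gadd45a shows the widest gap, with 92.8 to 169.8 TPM in the 6 tumors and 5.74 to 8.18 in the 6 cultures, and Cdkn2a and Cdkn2b are listed at 0 in every culture.

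Knockdown tumors were then set against control tumors. By limma, 0 of the 38 genes passed, against 1.51% of all 14915 genes tested. At an unadjusted p under 0.05 there were 2, both higher in knockdown tumors (Pcna and Cdk1), and 0 lower, against 7.52% of all genes higher and 11.2% lower. The median log2 change was 0.06 for the S-phase genes and 0.03 for the mitotic genes, beside -0.05 for all genes. In tumors 24 of the 38 changes were positive, and in culture 29 of the 38 were. The share of positive changes over all genes was not counted. Pcna at 224, 239 and 207 TPM in knockdown tumors lay above control tumors at 179, 194 and 168 in every library, with a log2 change of 0.31 (SE 0.080, 95% interval 0.12 to 0.50, limma adjusted p = 0.115). It was called only when all 12 libraries were fitted together (adjusted p = 0.0216). Cdk1, with the values given above, changed by 0.23 (SE 0.092, adjusted p = 0.237), and its groups did not overlap, by less than 1 TPM (155.1 in knockdown tumor 2 and 154.8 in control tumor 2).

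Of the other genes with the smallest p in tumors, Cdt1 was below the control tumors in each knockdown tumor (log2 change -0.18, adjusted p = 0.270). Rrm2 changed by 0.19 (adjusted p = 0.360) and Ccna2 by 0.19 (adjusted p = 0.330), and the groups of each overlapped. Kif23 had 33.9, 26.5 and 31.1 TPM in knockdown tumors, against 32.4, 36.4 and 38.2 in control tumors, and a log2 change of -0.22 (adjusted p = 0.322). Groups without overlap were found for 3 genes higher in knockdown tumors (Pcna, Cdk1 and Bub1, against 9.81% of all genes) and 1 lower (Cdt1, against 14.9%). The 95% intervals of the 38 changes reached from -0.77 (Cenpf) to 0.72 (Ccne2), so smaller differences of single genes may not have been detectable. Mki67, Top2a, Ccnb1, Mcm2 and Ccne1, with the values given above, changed by 0.16, 0.09, 0.10, -0.02 and 0.28, and each overlapped between the groups.

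The wider lists also had 0 calls in tumors. Under alternatives, the fit of all 12 libraries called 3 other replication genes and 1 other mitotic gene higher. It called 1 gene that holds back the cell cycle lower. Over all genes, that fit called 724 of 14545, of which 455 were higher, against 225 of 14915 as reported. Array weights called 1 other replication gene and 1 other mitotic gene higher. Over all genes, they called 795 of 14915, of which 370 were higher. Without knockdown tumor 3, 1 gene that holds back the cell cycle was called lower, beside 224 of 14885 genes called in either direction. Without knockdown tumor 2, 1 gene of the G1 list was called higher, beside 65 of 14965 genes called in either direction. Of 42 other replication genes, 10 were higher and 1 was lower at an unadjusted p under 0.05, and of 52 other mitotic genes 9 were higher and 1 was lower, against the 7.52% and 11.2% of all genes. Gins1, a further GINS subunit, had 22.5, 23.6 and 19.3 TPM in knockdown tumors, against 14.8, 17.2 and 12.1 in control tumors (log2 change 0.55, adjusted p = 0.110). Of 17 genes that hold back the cell cycle, 5 were lower and 0 higher at that p, among them Ccng1 (-0.48, adjusted p = 0.136). Marker sums of several cell types also differed between these tumors. T cell markers summed to 42.2 to 54.5 TPM in knockdown tumors, against 14.1 to 34.9 in control tumors. Leukocyte markers summed to 734 to 846 TPM in knockdown tumors, against 517 to 678 in control tumors. All 7 genes of each list averaged at least 1 TPM in both groups. No gene of either list passed by limma, with the smallest adjusted p at 0.0853 (Cd3e) and 0.0744 (Cd53). The T cell genes Cd4 (log2 change 0.09) and Trac (0.24) overlapped between the groups, as did the leukocyte genes Coro1a, Laptm5 and Lcp1. Skeletal muscle markers summed to 14.9 to 82.4 TPM in knockdown tumors, against 3.43 to 14.5 in control tumors. These sums almost met, at 14.87 in knockdown tumor 2 and 14.54 in control tumor 2. Of the 8 muscle genes, 7 averaged at least 1 TPM in knockdown tumors and 3 in control tumors. No tested muscle gene passed by limma. Lower in knockdown tumors were the HM1 epithelial sums given above, without overlap, and the fibroblast sums given above, with overlap. The endothelial markers summed to 49.3 to 70.3 TPM in knockdown tumors, against 67.3 to 96.3 in control tumors, also with overlap. Single genes of these lists went the other way: Wt1 (log2 change 0.23) and Cldn3 (0.22) among the epithelial, and Lum (0.29) and Pdgfra (0.05) among the fibroblast markers. The other tested genes of these lists had negative changes, and of them only Fap, a fibroblast marker, passed by limma (-0.89, adjusted p = 0.0148). The part of these cells in the values was not tested.

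**Figure D5:**
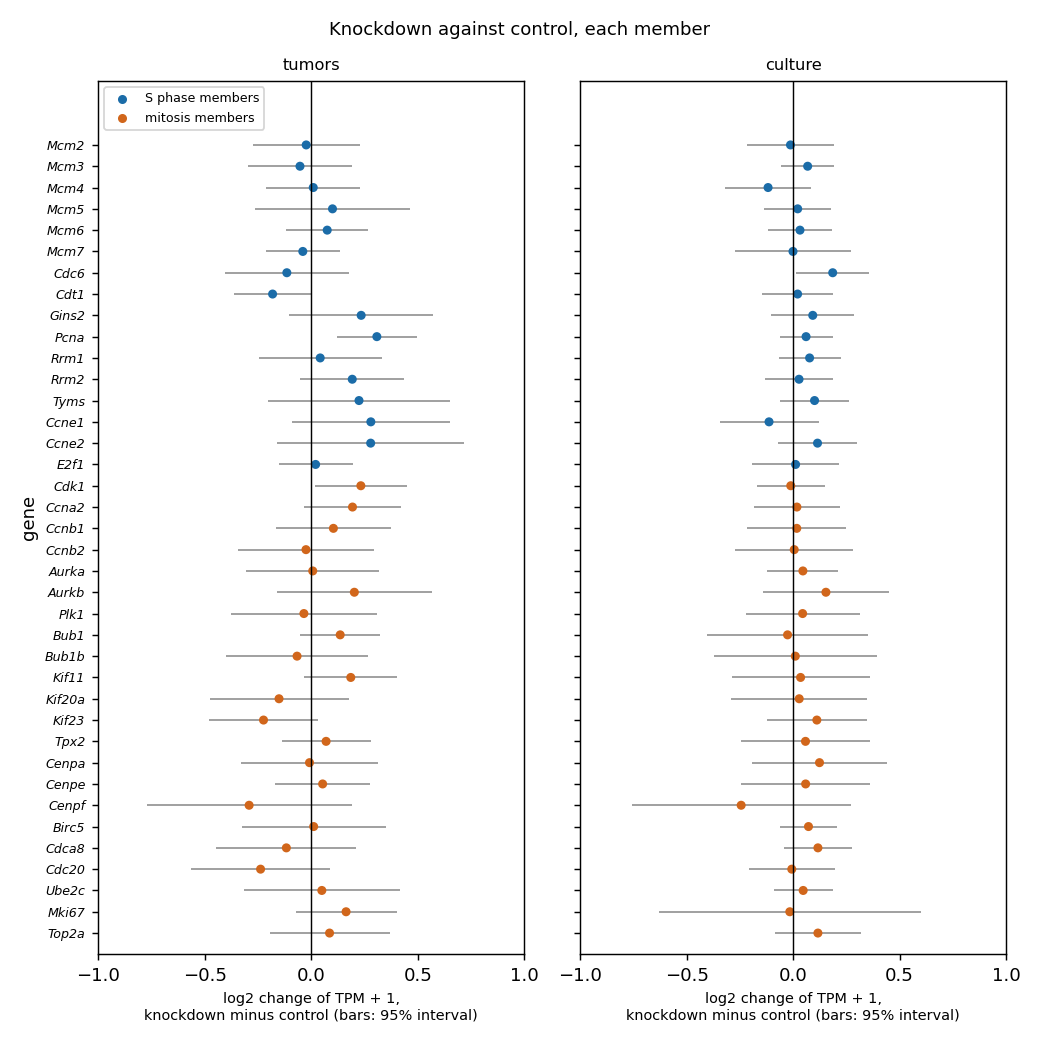
Change of each of the 38 genes with knockdown, as log2 of TPM + 1 in knockdown minus control (horizontal axis), in tumors (left) and in culture (right), with bars for the 95% interval. Points lie between -0.29 and 0.31 in tumors and between -0.24 and 0.19 in culture, and the intervals that leave out 0 are those of Pcna and Cdk1 in tumors and of Cdc6 in culture.

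In culture the T cell, endothelial and fibroblast markers summed to at most 1.90 TPM, the leukocyte markers to 7.25 to 10.7 TPM and the macrophage markers to 16.6 to 22.1 TPM. There, 0 of the 38 genes passed by limma, against 0.0296% of all 13492 genes tested. At an unadjusted p under 0.05 there was 1, higher in knockdown cultures, against 2.1% of all genes, and 0 lower, against 1.32%. This was Cdc6, at 40.7, 40.9 and 41.2 TPM in knockdown cultures, against 36.5, 36.7 and 34.5 in control cultures (log2 change 0.19, SE 0.073, limma adjusted p = 1.00). The median change was 0.03 for the S-phase genes and 0.04 for the mitotic genes, beside 0.02 for all genes, and 29 of the 38 changes were positive. Tyms had 121, 125 and 114 TPM in knockdown cultures, against 117, 108 and 111 in control cultures, and Ccne2 had 59.9, 61.6 and 55.6 TPM in knockdown cultures, against 57.8, 53.6 and 51.8 in control cultures. Both overlapped between the groups. Cdca8 had 53.3, 54.9 and 54.7 TPM in knockdown cultures, against 48.7, 49.6 and 51.8 in control cultures, with no overlap and a log2 change of 0.12. Top2a and Birc5, with the values given above, changed by 0.12 and 0.07. Groups without overlap were found for 3 genes higher in knockdown cultures (Mcm3, Cdc6 and Cdca8, against 5.25% of all genes) and for 0 lower (against 2.45%).

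The S-phase genes varied less between the libraries of a group in culture. Their 95% intervals lay within -0.35 and 0.36, against -0.76 and 0.60 for the mitotic genes, whose widest were those of Cenpf and Mki67. The median coefficient of variation within a group was 5.63% in knockdown cultures and 4.05% in control cultures for the S-phase genes, and 11.3% and 8.34% for the mitotic genes. In tumors it was 8.55% in knockdown and 12.7% in control for the S-phase genes, and 11.5% and 14.6% for the mitotic genes.

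The difference between the knockdown effect in tumors and that in culture was tested for each gene. By limma 0 of the 38 genes passed, against 0.766% of 15407 genes, and 1 had an unadjusted p under 0.05, against 11.1%. This was Pcna, whose change was larger in tumors than in culture by 0.25 (SE 0.094, limma adjusted p = 0.334). By p, Kif23 (-0.34), Cdc6 (-0.30), Cdk1 (0.24), Cdt1 (-0.20), Ccne1 (0.39) and Cdca8 (-0.23) followed, with adjusted p of 0.454 to 0.626.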

How the data were processed

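RNA levels were measured in 12 HM1 libraries, 3 in each of 4 groups taken from the sample titles. The authors deposited 1 table per library with gene name, length and TPM to 2 decimals, per the file headers. Per the submitters' processing notes, the tools were RSEM, HISAT and fastp and the build GRCm39, with no versions. TPM holds no depth, so no counting interval is given, and whether counting used strand was not stated in the labels.

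Values were tested as log2(TPM + 1) with limma 3.58.1 in R 4.3.3 (trended, robust empirical Bayes), for genes averaging 1 TPM or more in a group of the comparison, with Benjamini-Hochberg adjustment over all genes tested. A call is a two-sided adjusted p under 0.05. All adjusted p given come from limma, and log2 changes are on this scale, which understates the change of low genes. Knockdown was tested within the 6 libraries of a tissue. Tumors against culture, and the difference of the knockdown effect, were tested on 12 libraries after TPM was rescaled to the same total over the 55416 annotated identifiers that all share, a factor of 1.01 to 1.02. The procedure was tested on simulated data. Alternatives were a pseudocount of 0.1, other filters, median-of-ratios scaling, scaling to genes expressed in culture, array weights, no robust step, a replicate block, joint fits and leaving out libraries.

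The genes, the lists and the rule for named genes were chosen with earlier results of these data known. Values in every library are given for Mki67, Top2a, Cdk1, Ccnb1, Mcm2, Pcna, Rrm2 and Ccne1. For the 3 S-phase and 3 mitotic genes with the smallest p in each comparison, values are given in the libraries compared. The exceptions are Kif23 and Cdca8 for the difference of the knockdown effect, given in tumors only and in cultures only. Of other lists at most 6 called genes per comparison, by smallest p, could be named. Ccnb2, Mcm5, Mcm6, the keratins, Msln, Cdh1, Ccnd2, Pttg1, Cdkn2a, Cdkn1a, Ccng1 and Gins1 were singled out after their values were seen. Python 3.11.15 and matplotlib 3.10.9 were used for the figures.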

Additional observations from a re-analysis of the deposited data

How the results depend on the processing

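Between tumors and culture, 1 of the 38 genes took the other sign under any alternative, namely Cenpa in the knockdown line (0.10, and below 0 under 1 of 21). The uncalled knockdown changes were less stable in sign: 16 genes in tumors, 19 in culture and 20 for the difference took the other sign under at least 1 alternative. For the 3 S-phase and 3 mitotic genes with the smallest p in each comparison, no sign changed among 552 alternative values, of which 550 kept their side of the threshold. These genes were picked by p in the same data, which favors stable signs. Other filters, no robust step, the replicate block and the 2-fold minimum also leave a log2 change as it was, for any gene. So does leaving out libraries of the other line, for tumors against culture. Such alternatives could not change a sign. In tumors, knockdown against control gave 1 of the 38 genes as higher (Pcna) when all 12 libraries were fitted together. That fit called 724 of 14545 genes over all genes, 455 of them higher. Every other alternative gave 0 of the 38 in tumors, and in culture and for the difference 0 passed throughout. With a minimum change of 2-fold, 21 genes were lower and 0 higher in tumors than in culture, in each line. Leaving out 1 library at a time gave 33 to 35 lower in the knockdown line and 32 to 35 in the control line, and 1 higher in each, except 2 in the control line without control culture 3. Median-of-ratios scaling gave medians of -1.65 (S phase) and -1.03 (mitosis) in the control line, with an all-gene median of 0.04 in place of 0.18. Calls over all genes ranged from 2 to 795 for knockdown in tumors (225 as reported), from 4 to 15 in culture (4 as reported) and from 0 to 260 for the difference (118 as reported). The share of calls that were higher moved with array weights to 46.5% of 795 for knockdown in tumors, against 71.1%, and with median-of-ratios scaling to 84.8% for the difference, against 74.6%, and to 52.4% for tumors of the control line, against 61.2%.

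To look for pairing, the mean of the group was first subtracted from each gene. The remainders of same-numbered knockdown and control libraries correlated at -0.14 to 0.05 in tumors and -0.16 to -0.06 in culture. Of the knockdown libraries, only knockdown tumor 3 correlated best with its own number, and no control library did. These values gave no sign that the numbers pair the libraries, but 3 libraries per group are too few to decide it. With a replicate block, 34 of the 38 genes were lower in tumors of the knockdown line and 32 in the control line, and 1 was higher in each. Over all genes, the block called 9042 of 14852 in the knockdown line, 5038 of them higher. In the control line it called 9178 of 14801, 5628 of them higher. In the knockdown comparisons 0 of the 38 passed, and over all genes 2, 4 and 0 passed in tumors, in culture and for the difference.

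The 3 libraries per group, unknown depth and the separate table sets limit precision. In tumors the 95% intervals of the knockdown effect reached -0.77 and 0.72 on the log2 scale.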
